A study of Mus musculus with 9 samples.

Results

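A set of 45 genes of mitosis and DNA replication were followed by RNA-seq in the mouse iris after corneal alkali injury (CAI). The genes were taken by symbol from the count table of 18349 genes, in which all 45 were present, and all 45 were among the 15010 genes with enough counts to be tested. Of these, 27 act in mitosis and cytokinesis and 18 in entry into S phase and DNA replication. The rule used gene names and no measured value, although earlier results of these data were known when the set was drawn up.

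The libraries fall into 3 groups of 3, and each library was made from 3 pooled irises of C57BL/6J mice. Mice of the Sham VEGFR3fl/fl group received PBS on the cornea, and those of the Injured VEGFR3fl/fl group received 0.5 µL of 1 M sodium hydroxide for 60 seconds at 6 weeks of age. Injured VEGFR3iLECko mice received the same injury and carried VEGFR3fl/fl together with Prox1-CreERT2, a tamoxifen-inducible Cre under the promoter of Prox1, a transcription factor of lymphatic endothelial cells (LECs) that other cell types also express. VEGFR3, encoded by Flt4, is the receptor through which VEGFC drives the growth of lymphatic vessels. All groups carried the floxed allele, and per the labels tamoxifen at 80 mg/kg was given on days 13 to 17 after injury, so neither the Cre transgene alone nor tamoxifen alone had a control of its own. Irises were collected on day 28, at week 10 of age. The submitters labelled both VEGFR3fl/fl groups WT, and the genotype labels of iLECko replicates 2 and 3 name a different VEGFR number from replicate 1; the sample titles were followed. Nothing in the labels ties replicate numbers across groups, so p-values measure the spread between these pools. The paper states that 3 sequencing experiments were run but does not say which libraries belonged to each, so a batch by replicate number remains possible.

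The libraries held 16617187 to 18306359 counts. The iris label matched its markers: 12 pigment, muscle and iris genes summed to 34508 to 38234 CPM (counts scaled to the library size after TMM scaling) in Sham, 4978 to 8123 in injured VEGFR3fl/fl and 8043 to 9509 in iLECko libraries. Flt4 stood at 13.4 to 15.6 CPM in Sham, 16.8 to 23.0 in injured VEGFR3fl/fl and 21.0 to 27.9 in the libraries labelled iLECko, which is not lower in the latter (log2 difference 0.33, adjusted p = 0.200). Loss of VEGFR3 is therefore not shown by these counts, and iLECko names the libraries by their label throughout. The counts cover the whole iris and not LECs alone. By LYVE1 staining, the paper reports that lymphatic growth in the injured iris was blocked in VEGFR3iLECko mice. The sexes of the pooled mice differed between libraries: 4 Y-linked genes summed to 51.1 to 167 CPM in Sham, to 0.804 to 151 CPM in injured VEGFR3fl/fl, where replicate 3 was the low library, and to 0.736 to 1.11 CPM in iLECko libraries. Sex and genotype therefore can be told apart only through that 1 library.

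Dividing cells copy their DNA in S phase and separate the copies in mitosis. Entry into S phase is driven by cyclin E with its kinase and by E2F transcription factors, after which the MCM helicase, loaded by Cdc6 and Cdt1, unwinds DNA and the clamp Pcna holds the polymerases on it. Mitosis is driven by Cdk1 with cyclin B, organised by Aurora and Polo-like kinases, watched over by Bub kinases, and ended when Cdc20 and Ube2c direct the anaphase-promoting complex to destroy cyclin B. Many replication genes are transcribed under E2F factors from late G1, whereas many mitotic genes are transcribed later under the MuvB complex, with B-Myb or Foxm1, through the cell cycle genes homology region (CHR) and CCAAT boxes. In the adult iris, most resident cells are not dividing.

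Mitosis and replication genes differed in the motifs found in their promoters. The 170 bases upstream of 6 members run here 5′ to 3′ on the strand of the gene, from RefSeq on GRCm38.p6, the build of the authors' alignments (mm10). Capitals mark exact matches to the CHR (TTTGAA or TTCGAA), the CCAAT box (CCAAT) or an E2F site (TTTCCCGC, TTTGGCGC or TTTCGCGC) on either strand. Top2a, Cdc20 and Cdk1 stand for the mitosis genes, Mcm5 and Mcm6 for the replication genes, and Arhgap19 is shown because it was the one member called between the injured groups.
Top2a, chr11:99024190-99024359, minus strand: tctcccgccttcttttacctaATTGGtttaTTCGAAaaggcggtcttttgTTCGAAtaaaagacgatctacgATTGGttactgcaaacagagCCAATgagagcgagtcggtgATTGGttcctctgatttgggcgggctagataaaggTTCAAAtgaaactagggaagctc
Cdc20, chr4:118437344-118437513, minus strand: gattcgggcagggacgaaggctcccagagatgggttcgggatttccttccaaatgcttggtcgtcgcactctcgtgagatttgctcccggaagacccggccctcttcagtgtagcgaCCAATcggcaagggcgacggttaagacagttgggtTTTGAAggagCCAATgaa
Cdk1, chr10:69352913-69353082, minus strand: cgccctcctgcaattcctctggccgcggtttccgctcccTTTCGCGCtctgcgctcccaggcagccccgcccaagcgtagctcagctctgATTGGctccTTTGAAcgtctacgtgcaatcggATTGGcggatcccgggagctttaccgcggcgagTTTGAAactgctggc
Mcm5, chr8:75109339-75109508, plus strand: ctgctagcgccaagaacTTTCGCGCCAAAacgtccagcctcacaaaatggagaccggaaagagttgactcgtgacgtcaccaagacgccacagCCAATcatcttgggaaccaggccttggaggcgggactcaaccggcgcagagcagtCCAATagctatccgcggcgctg
Mcm6, chr1:128359706-128359875, minus strand: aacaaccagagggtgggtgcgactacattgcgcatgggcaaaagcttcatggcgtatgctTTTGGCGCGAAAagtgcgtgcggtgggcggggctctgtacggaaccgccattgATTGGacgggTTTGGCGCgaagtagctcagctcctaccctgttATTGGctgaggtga
Arhgap19, chr19:41802085-41802254, minus strand: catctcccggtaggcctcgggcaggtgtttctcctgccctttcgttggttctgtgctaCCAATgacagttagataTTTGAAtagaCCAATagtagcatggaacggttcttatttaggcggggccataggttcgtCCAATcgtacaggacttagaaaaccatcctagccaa

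Cdc20 carried a CHR 18 bases before its start and Cdk1 had its nearest CHR 15 bases before, with CCAAT boxes at 53 and 8 bases before the start in Cdc20 and at 80 and 48 in Cdk1. Mcm5 and Mcm6 carried no CHR in these windows and each had a pair of overlapping E2F matches, at 153 and 149 bases before the start in Mcm5 and at 110 and 106 in Mcm6. Arhgap19 had 1 CHR, 95 bases before its start, between CCAAT boxes at 112 and 85. Over the whole table window (250 bases before to 50 after the start), 37 members had a promoter. A CHR stood in 18 of 22 mitosis genes (81.8%) and 2 of 15 replication genes (13.3%), beside 21.7% of the 27025 genes of the table. An E2F match stood in 1 of 22 mitosis genes (Cdk1, 4.55%) and 7 of 15 replication genes (46.7%), beside 2.12% of all genes. CCAAT was found in 19 of 22 mitosis genes (86.4%), 9 of 15 replication genes (60%) and 41.1% of all genes. A gene with several promoters was counted once, if any held the motif. Aurkb, Ccna2, Ccne2, Foxm1, Gins2, Kif20a, Mcm4 and Tpx2 were not in the table. A match of letters is a description and was not tested for binding.

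The first comparison asked what alkali injury does to these genes in VEGFR3fl/fl mice. Mitosis genes were many-fold higher in the injured iris, and the replication genes divided into some that rose as strongly and others that moved little. Of the 45 members, 36 were called higher and 0 lower, where a call needs an adjusted p below 0.05 in edgeR's quasi-likelihood test and more than a 1.5-fold difference; 22.1% of all genes tested were called higher and 17.5% lower. DESeq2 likewise called 0 members lower, and none of the 44 members with an unadjusted p below 0.05 had a lower level after injury. Among mitosis genes 25 of 27 and among replication genes 11 of 18 were called higher. These counts, those by function and the medians below include 11 members that needed their injured libraries to be tested at all. They were 7 mitosis genes (Ccnb1, Ccnb2, Aurkb, Birc5, Bub1, Cenpf and Ube2c) and 4 replication genes (Ccne1, Ccne2, Cdc6 and Tk1). Such members could enter the test only if high enough in injured libraries, here and in the third comparison. The median log2 fold change was 2.97 for mitosis genes (7.84-fold) and 1.37 for replication genes (2.59-fold), beside 0.01 over all genes. Every injured library lay above every Sham library for 24 mitosis and 15 replication genes, which held for 33.9% of all genes.

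**Figure D1:**
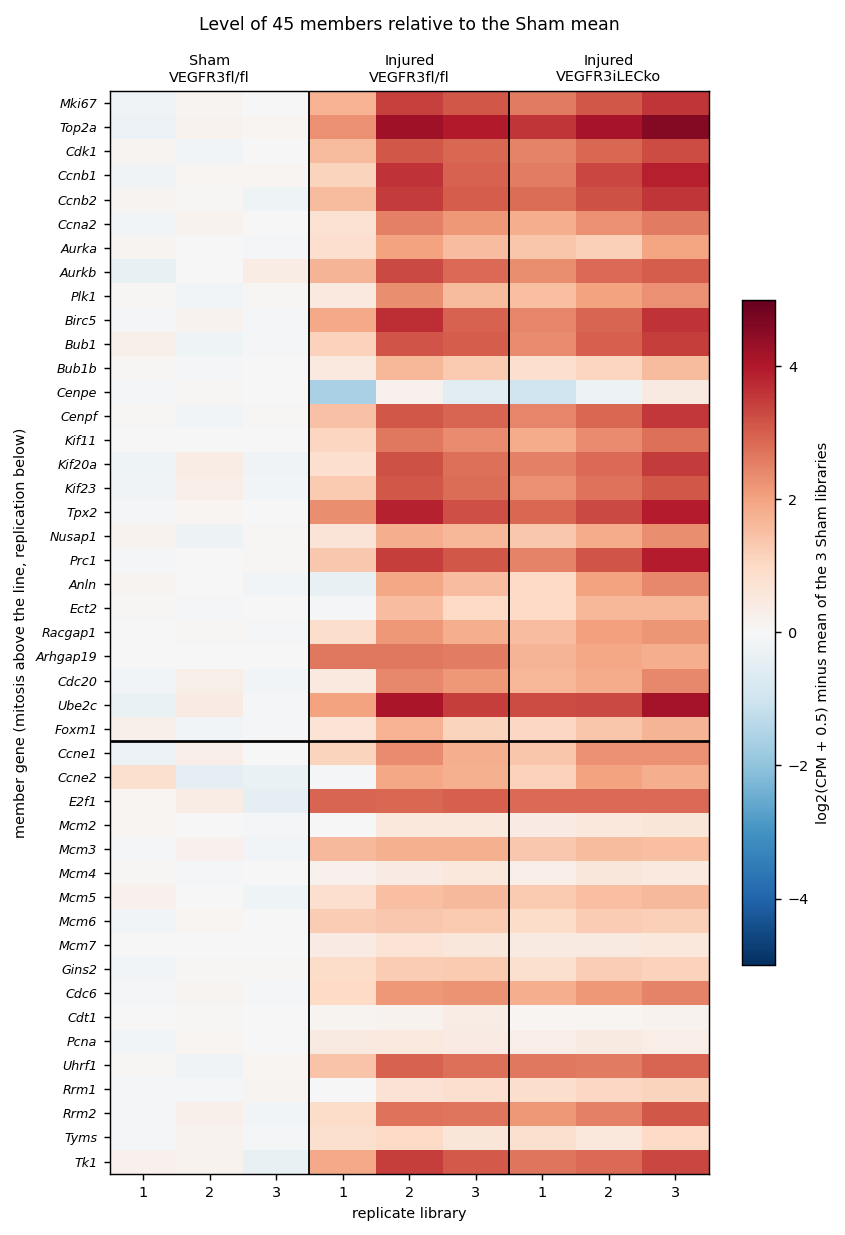
Level of each of the 45 members (rows, mitosis genes above the black line and replication genes below) in each library (columns), as log2(CPM + 0.5) minus the mean of the 3 Sham libraries. Red is higher than Sham. Injured VEGFR3fl/fl replicate 1 is paler than its fellow replicates over the mitosis rows, and the rows of Arhgap19 and E2f1 are even across each injured group.

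Mki67, the nuclear antigen Ki-67 used to mark cycling cells, was at 2.88, 3.73 and 3.38 CPM in the Sham libraries, at 12.4, 39.9 and 32.3 in injured VEGFR3fl/fl replicates 1 to 3, and at 22.4, 32.6 and 44.6 in the iLECko replicates. All 6 injured libraries stood above all Sham libraries, and injured VEGFR3fl/fl replicate 1 was the lowest of the 6. The difference of the injured VEGFR3fl/fl group from Sham was 3.08 ± 0.44 on the log2 scale (SE; 8.45-fold, adjusted p = 0.000275). Top2a, the topoisomerase that untangles sister chromatids, was at 0.831, 1.36 and 1.24 CPM in Sham, at 7.46, 30.1 and 25.2 in injured VEGFR3fl/fl, and at 18.8, 27.5 and 38.8 in iLECko libraries. It followed the same order of libraries and rose by 4.19 ± 0.56 (18.2-fold, adjusted p = 0.000192).

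The cyclins and kinases that drive mitosis, grouped with Birc5 (survivin), which is neither, were called higher in 8 of 8 cases, with a median log2 fold change of 3.49. Of all genes tested, 22.1% were called higher. Ccnb1, Ccnb2, Aurkb and Birc5 could be tested only through their injured libraries. Cdk1, the mitotic kinase itself, was at 1.55, 1.19 and 1.35 CPM in Sham, 5.10, 15.6 and 13.3 in injured VEGFR3fl/fl and 9.76, 13.3 and 17.4 in iLECko libraries. It was 8.28-fold higher after injury (log2 3.05 ± 0.42, adjusted p = 0.000237). Ccnb1, the cyclin B1 partner of Cdk1, was nearly silent in Sham, with 1, 3 and 3 counts (0.0554, 0.169 and 0.169 CPM). It reached 0.85, 7.26 and 4.31 CPM in injured VEGFR3fl/fl and 3.21, 5.89 and 8.81 CPM in iLECko libraries. With so few Sham counts the ratio is best given from the summed counts, as 31.9-fold with a 95% exact interval of 15.2 to 80.4 for injured VEGFR3fl/fl over Sham and 45.7-fold (21.9 to 115) for iLECko over Sham, intervals that cover counting error only. Ccnb2, a second cyclin B, rose by 3.92 and Ccna2, the cyclin A that acts in S phase and early mitosis, by 2.14.

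Plk1, the Polo-like kinase needed for spindle assembly and mitotic exit, was at 1.72, 1.47 and 1.75 CPM in Sham, 2.49, 10.3 and 5.97 in injured VEGFR3fl/fl and 5.49, 8.04 and 9.90 in iLECko libraries. Its rise of 1.92 ± 0.46 (3.79-fold, adjusted p = 0.00581) was smaller than that of Cdk1 in the fitted values, and injured VEGFR3fl/fl replicate 1 stood just above the Sham range. Of the Aurora kinases, Aurkb, the catalytic subunit of the chromosomal passenger complex, rose by 3.96 ± 0.59, and Aurka, which matures the spindle poles, by 1.84 ± 0.37. Birc5, which sits in the same complex as Aurkb, rose by 4.07 ± 0.59.

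Among the 4 checkpoint and kinetochore genes, 3 rose and 1 did not. Bub1, a kinase of the spindle checkpoint, had the largest rise of all members after injury in VEGFR3fl/fl mice, 5.02 ± 0.93 (adjusted p = 0.0013). Its Sham libraries held 4, 0 and 1 counts, against 13, 80 and 74 in injured VEGFR3fl/fl and 43, 73 and 102 in iLECko libraries, so the size of the fitted fold rests on 5 Sham counts. In CPM the injured libraries stood at 0.789, 4.68 and 4.25 in VEGFR3fl/fl and 2.51, 4.13 and 5.87 in iLECko mice. Cenpf, a kinetochore protein of G2 and M phase, rose by 3.89 and Bub1b (BubR1) by 1.35. Cenpe, the kinesin that brings chromosomes to the metaphase plate, was the exception: 6.98, 7.80 and 7.32 CPM in Sham, 2.06, 8.55 and 4.82 in injured VEGFR3fl/fl and 3.45, 6.004 and 10.1 in iLECko libraries. The groups overlapped and the difference was -0.52 ± 0.49 (adjusted p = 0.386), but within the injured groups its libraries ran in the order of the other mitosis genes.

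Of the 10 spindle and cytokinesis genes, 9 were called higher, led by Tpx2, a spindle assembly factor that activates Aurora A (3.80 ± 0.47), and Prc1, which bundles the microtubules of the central spindle (3.39 ± 0.61). The kinesins Kif23, Kif20a and Kif11 rose by 3.09, 2.97 and 2.56, and Racgap1, the partner of Kif23 in the centralspindlin complex, by 1.83. Anln (anillin, a scaffold of the contractile ring) was 1.49 ± 0.58 higher but missed the threshold (adjusted p = 0.0509), and passed it without injured VEGFR3fl/fl replicate 1 (1.93, adjusted p = 0.00192) or without iLECko replicate 1 (1.49, adjusted p = 0.0437). Ect2, the exchange factor that activates RhoA at the cleavage furrow, was called by a narrow margin (1.18 ± 0.45, adjusted p = 0.0447). Leaving out any Sham library, or injured VEGFR3fl/fl replicate 2 or 3, or iLECko replicate 2 or 3, ended that call, with adjusted p between 0.0595 and 0.189 and log2 fold changes between 0.68 and 1.22.

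Both genes of mitotic exit rose. Cdc20, the activator of the anaphase-promoting complex, was at 1.22, 1.81 and 1.24 CPM in Sham, 2.18, 9.60 and 7.98 in injured VEGFR3fl/fl and 5.55, 6.4 and 9.61 in iLECko libraries, a rise of 2.21 ± 0.50 (4.62-fold, adjusted p = 0.00434). Ube2c, the ubiquitin-conjugating enzyme of that complex, rose by 4.53 ± 0.68. Foxm1, the transcription factor of G2 and M phase genes, was already readable in Sham at 6.65, 4.91 and 5.01 CPM. It reached 9.22, 19.2 and 12.6 in injured VEGFR3fl/fl and 11.9, 15.0 and 19.1 in iLECko libraries, and its rise of 1.31 ± 0.28 (2.47-fold, adjusted p = 0.00332) was below the median of the mitosis genes.

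**Figure D2:**
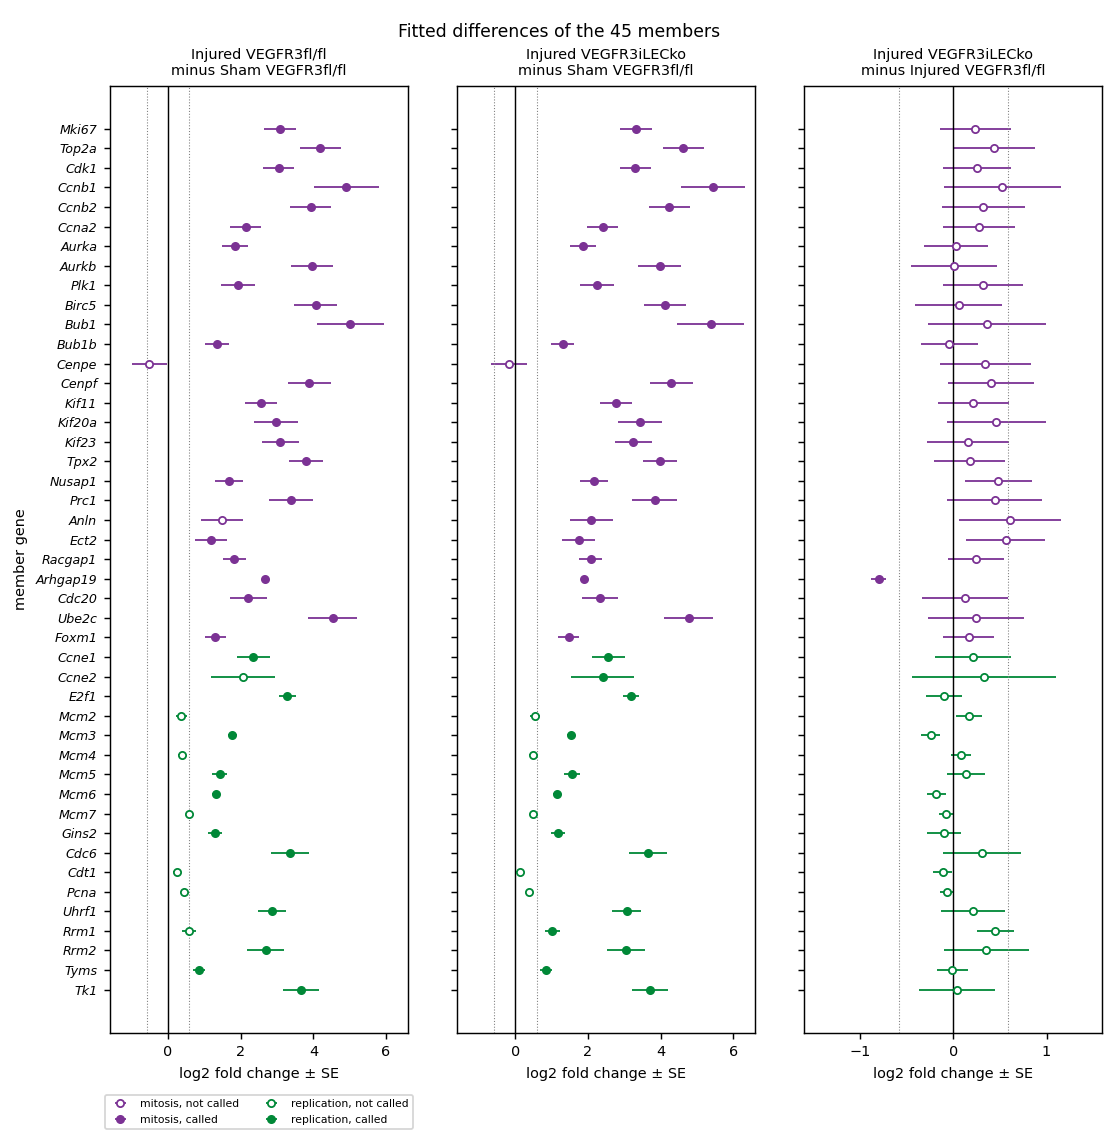
Fitted log2 fold change of each member (points) with its SE (bars) for injured VEGFR3fl/fl over Sham, iLECko over Sham, and iLECko over injured VEGFR3fl/fl; filled points were called, open points were not, and dotted lines mark 1.5-fold. The third panel has a narrower axis, and Arhgap19 (-0.80) is its only filled point.

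Of the replication genes, the 3 of S-phase entry stood at low levels in Sham. E2f1, the activating E2F factor, was at 1.44, 1.86 and 0.845 CPM in Sham, 13.4, 13.0 and 14.1 in injured VEGFR3fl/fl and 12.7, 12.4 and 12.7 in iLECko libraries. It rose by 3.28 ± 0.23 (9.73-fold, adjusted p = 3.42e-06), and unlike Mki67 it was as high in injured VEGFR3fl/fl replicate 1 as in replicates 2 and 3. Ccne1, cyclin E1, was at 0.554, 1.13 and 0.788 CPM in Sham, 2.31, 6.21 and 4.13 in injured VEGFR3fl/fl and 2.92, 5.83 and 5.87 in iLECko libraries, a rise of 2.35 ± 0.46 (adjusted p = 0.00176). Ccne2, cyclin E2, was 2.08 ± 0.88 higher and not called (adjusted p = 0.0682); it had 0.997 CPM in Sham replicate 1 and under 0.2 in the other Sham libraries, and passed the threshold without that library (3.63, adjusted p = 0.0165) or without injured VEGFR3fl/fl replicate 1 (2.57, adjusted p = 0.0115).

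The licensing and helicase genes were not uniform: 5 of 9 were called. Within the MCM ring, whose subunits work in equal numbers, Mcm3, Mcm5 and Mcm6 rose by 1.77 ± 0.11, 1.42 ± 0.22 and 1.33 ± 0.11. Mcm7, Mcm4 and Mcm2 differed by 0.57 ± 0.08, 0.39 ± 0.11 and 0.37 ± 0.14, with adjusted p of 0.000314, 0.0108 and 0.0495 but folds of 1.48, 1.31 and 1.29, under the 1.5-fold limit; without injured VEGFR3fl/fl replicate 1, Mcm7 passed it (0.63, adjusted p = 0.000153). Mcm5 was at 6.43, 5.31 and 4.62 CPM in Sham, 10.2, 16.04 and 17.5 in injured VEGFR3fl/fl and 14.1, 16.4 and 17.5 in iLECko libraries. All injured libraries exceeded all Sham libraries for it. Mcm2 was at 19.2, 18.2 and 17.1 CPM in Sham, 17.9, 26.3 and 26.1 in injured VEGFR3fl/fl and 24.5, 26.3 and 27.97 in iLECko libraries, so that replicate 1 of injured VEGFR3fl/fl lay within the Sham range. Per kilobase of transcript (longest GENCODE transcript), the MCM genes with the small differences were the ones with the higher Sham levels: Mcm7, Mcm4 and Mcm2 at 6.69, 5.49 and 5.19 CPM per kb, against 2.74 and 1.61 for Mcm3 and Mcm5, with Mcm6 (4.74) between them.

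Of the loading factors, Cdc6 rose by 3.35 ± 0.53 (10.2-fold, adjusted p = 0.000505) from 3, 5 and 3 Sham counts, and Cdt1 differed by 0.25 ± 0.10 (adjusted p = 0.0674), though each injured VEGFR3fl/fl library (12.5, 12.7 and 14.8 CPM) was above each Sham library (11.1, 11.7 and 10.9). Gins2, a subunit of the GINS part of the helicase, rose by 1.29 ± 0.19. Pcna was the most abundant member per length, at 41.0 CPM per kb in Sham against 0.0268 to 6.69 for the other 44. It was at 56.8, 66.6 and 63.4 CPM in Sham, 85.9, 86.2 and 81.7 in injured VEGFR3fl/fl and 77.3, 85.4 and 78.5 in iLECko libraries. The Sham libraries lay below all injured libraries while the injured groups overlapped each other, and the difference of injured VEGFR3fl/fl from Sham, 0.44 ± 0.08 (1.36-fold, adjusted p = 0.000864), fell short of the fold limit. Uhrf1, which brings DNA methylation back to newly copied strands, was at 1.61, 1.30 and 1.63 CPM in Sham, 4.86, 15.0 and 13.0 in injured VEGFR3fl/fl and 12.0, 11.5 and 14.6 in iLECko libraries, a rise of 2.85 ± 0.39 (7.23-fold, adjusted p = 0.000209).

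In nucleotide supply, 3 of 4 genes were called higher. Rrm2, the S-phase subunit of ribonucleotide reductase, was at 1.16, 1.64 and 1.13 CPM in Sham, 2.85, 11.4 and 11.1 in injured VEGFR3fl/fl and 7.65, 9.85 and 14.9 in iLECko libraries, a rise of 2.69 ± 0.52 (adjusted p = 0.00167). Its partner Rrm1, the large subunit, was at 32.9, 32.6 and 37.8 CPM in Sham and 33.5, 57.2 and 62.6 in injured VEGFR3fl/fl (0.57 ± 0.20, adjusted p = 0.0326, 1.49-fold), short of the fold limit; it passed without injured VEGFR3fl/fl replicate 1 (0.80, adjusted p = 0.000116) or Sham replicate 3 (0.64, adjusted p = 0.0493). Tk1, the thymidine kinase of S phase, rose by 3.67 ± 0.49. Tyms, thymidylate synthase, was at 6.70, 7.91 and 6.48 CPM in Sham, 12.4, 14.6 and 10.9 in injured VEGFR3fl/fl and 12.6, 10.4 and 14.6 in iLECko libraries, and had the smallest rise of the called members, 0.85 ± 0.17 (1.80-fold, adjusted p = 0.00201).

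**Figure D3:**
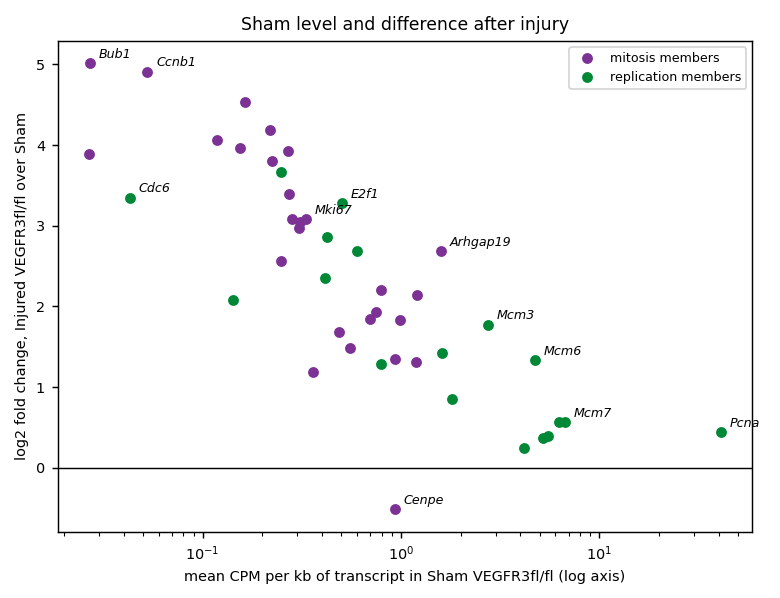
Mean level of each member in Sham, in CPM per kb of transcript on a log axis, against its log2 fold change in injured VEGFR3fl/fl over Sham. The Sham libraries enter both axes. Mcm7 (6.69 CPM per kb) and Pcna (41.0) lie at 0.57 and 0.44, and Mcm6 (4.74) at 1.33. Mitosis genes such as Bub1 and Ccnb1 lie at the upper left, and Cenpe is the one point below 0.

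Summed over the 27 mitosis genes, the Sham libraries held 55.4, 57.3 and 54.1 CPM, injured VEGFR3fl/fl libraries 155, 406 and 313, and iLECko libraries 227, 313 and 423. The Sham sums lay close together, while those of both injured groups spread widely and overlapped each other. The 18 replication genes summed to 211, 224 and 217 CPM in Sham, 337, 428 and 422 in injured VEGFR3fl/fl and 371, 419 and 429 in iLECko libraries. The ratio of the mitosis to the replication sum went from 0.249 to 0.262 in Sham to 0.459, 0.949 and 0.742 in injured VEGFR3fl/fl and 0.611, 0.748 and 0.986 in iLECko libraries. In bulk tissue, more cycling cells and more RNA per cycling cell cannot be told apart.

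**Figure D4:**
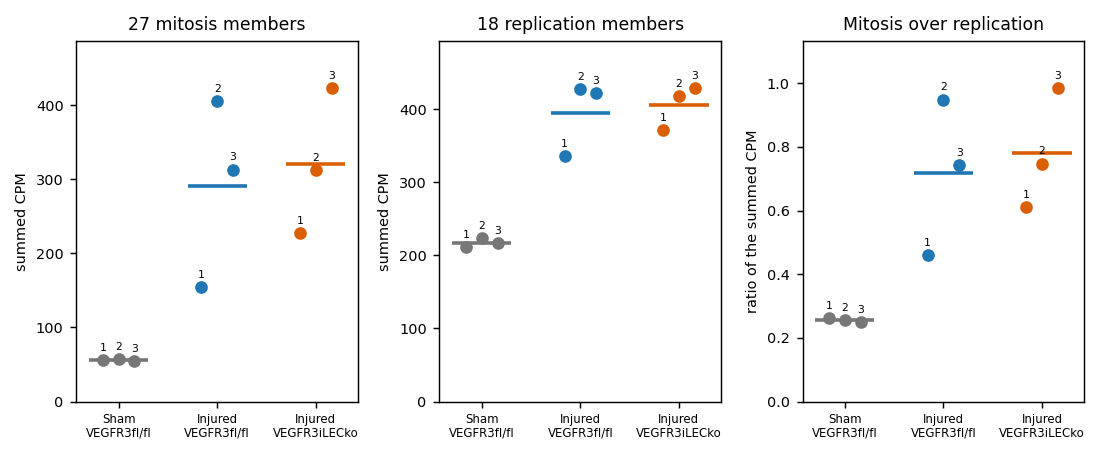
Summed CPM of the 27 mitosis genes, of the 18 replication genes, and the ratio of both sums, in each library (points, numbered by replicate) with the group mean (bar). Sham libraries cluster at 54.1 to 57.3 CPM for mitosis, and replicate 1 is the lowest library of either injured group in each panel.

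Within the injured groups the members varied together from library to library. In injured VEGFR3fl/fl mice, replicate 1 was the lowest library for 41 of 45 members (26 of 27 mitosis and 15 of 18 replication genes) and replicate 2 the highest for 26 mitosis genes; replicate 1 was lowest for 38.3% of all genes. That library also had the highest macrophage marker sum of its group (21134 CPM, against 12690 and 15646 in replicates 2 and 3) and the lowest iris marker sum (4978 CPM, against 8123 and 7711), and their part in its mitosis levels was not tested. The highest library exceeded the lowest by a median of 3.92-fold for mitosis genes and 1.41-fold for replication genes, against 1.26-fold over all genes. In iLECko mice the spread was narrower, with medians of 1.88-fold for mitosis and 1.25-fold for replication genes beside 1.20-fold over all genes; replicate 1 was again lowest for 41 members and replicate 3 highest for 26 mitosis genes. In Sham the medians were 1.31-fold and 1.24-fold. Without injured VEGFR3fl/fl replicate 1, 40 members were called higher than Sham, and the medians were 3.40 for mitosis and 1.51 for replication genes.

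The second comparison set the injured libraries labelled iLECko against those of injured VEGFR3fl/fl mice, a design meant to delete VEGFR3 in LECs, although a lower Flt4 level was not seen in the libraries so labelled. Of the 45 members, 1 gene, Arhgap19, was called lower in the libraries labelled iLECko, and the other 44 were not called either way. No member was called higher and 1 was called lower, against 0.573% and 0.466% of all genes; DESeq2 gave the same 0 and 1. An unadjusted p below 0.05 was reached by 3 members, Arhgap19, Mcm3 and Rrm1. The median log2 difference (iLECko minus injured VEGFR3fl/fl) was 0.25 for mitosis genes and 0.06 for replication genes, beside -0.01 over all genes. Both medians took the opposite sign without injured VEGFR3fl/fl replicate 1 (-0.09 and -0.09), the mitosis median was 0.64 without replicate 2, and 1 member was called in each case. The sign was also opposite for both without iLECko replicate 3 (-0.01 and -0.0007), and for the replication median with the Y-linked level as a covariate (-0.10).

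Arhgap19, a GTPase-activating protein for RhoA that is needed for cytokinesis in T lymphocytes, was at 8.14, 8.13 and 7.997 CPM in Sham, 53.0, 53.0 and 49.7 in injured VEGFR3fl/fl and 27.3, 32 and 29.9 in iLECko libraries. The 3 groups were fully apart, with little spread inside any of them, and replicate 1 of injured VEGFR3fl/fl was not low. Injury raised it by 2.68 ± 0.08 (6.41-fold, adjusted p = 4.73e-08), and it was lower in iLECko than in injured VEGFR3fl/fl mice by -0.80 ± 0.08 (0.573-fold, adjusted p = 0.0156). Even so it was 1.88 ± 0.08 above Sham in iLECko mice (3.67-fold, adjusted p = 3.59e-07). The difference between the injured groups was no longer called without iLECko replicate 2 (-0.86, adjusted p = 0.0679), in a fit of the 6 injured libraries alone (-0.79, adjusted p = 0.0815), or with the Y-linked level as a covariate (-0.75, adjusted p = 0.163). Injured VEGFR3fl/fl replicate 3, whose Y-linked level matched that of the iLECko libraries, held 49.7 CPM. That is 1 library, and the part of sex in the Arhgap19 difference was not tested.

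**Figure D5:**
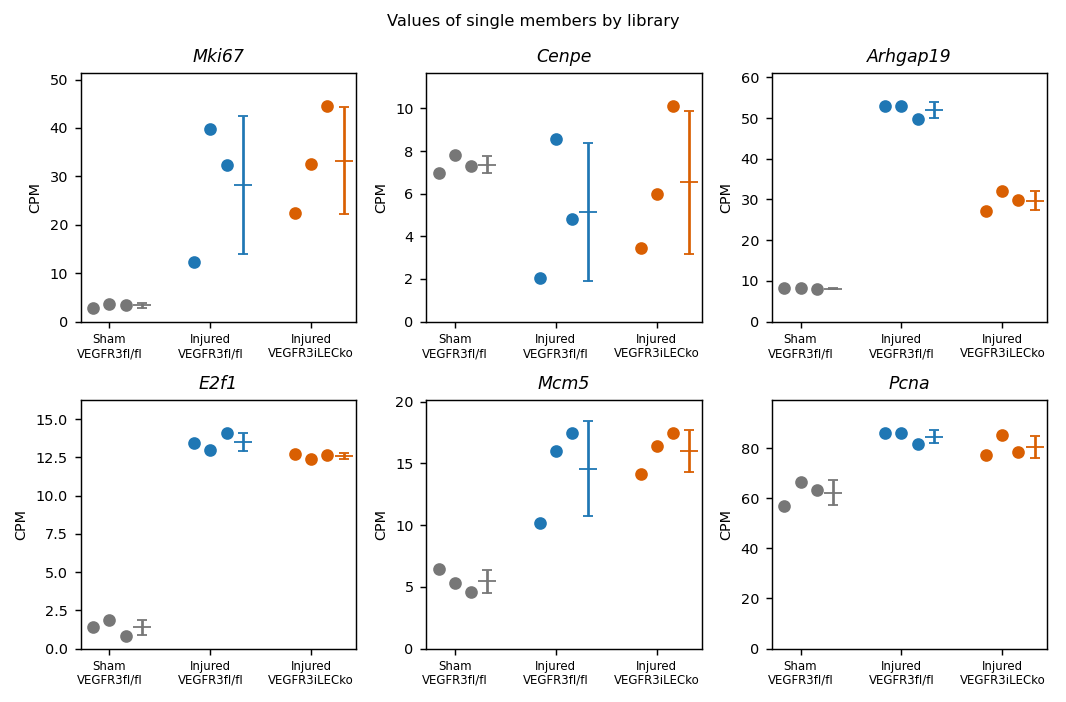
CPM of Mki67, Cenpe, Arhgap19, E2f1, Mcm5 and Pcna in each library (points, replicates 1 to 3 from left to right) with the group mean and SD (bar, n = 3). Arhgap19 separates all groups, E2f1 separates injured from Sham with little spread, and Mki67 and Cenpe spread widely among the injured libraries.

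In 4 members, Arhgap19, E2f1, Mcm3 and Mcm6, every iLECko library lay below every injured VEGFR3fl/fl library, as did 14.3% of all genes. For Mcm3 the libraries were at 29.7, 33.3 and 33.2 CPM in injured VEGFR3fl/fl and 24.7, 28.8 and 27.6 in iLECko mice, a difference of -0.25 ± 0.11 that was not called (adjusted p = 0.199). E2f1 differed by -0.10 ± 0.20 and Mcm6 by -0.18 ± 0.10. Rrm1 was the single member with every iLECko library above (63.7, 71.8 and 74.1 CPM against 33.5, 57.2 and 62.6), as were 12.4% of all genes; its difference was 0.45 ± 0.20 (adjusted p = 0.200).

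How small a difference could be seen depended on the class. For Mki67 the difference between the injured groups was 0.24 with a 95% interval of -0.62 to 1.09, which spans 0.652-fold to 2.13-fold. For Top2a it was 0.44 (-0.55 to 1.43), for Mcm5 0.14 (-0.33 to 0.60), for E2f1 -0.10 (-0.54 to 0.34) and for Pcna -0.07 (-0.24 to 0.10). The interval stayed within 2-fold in both directions for 14 of 18 replication genes but for only 5 of 27 mitosis genes. In the other 22 mitosis genes the interval reached past 2-fold higher in iLECko libraries, and in Aurkb and Bub1 alone (lower bounds 0.487-fold and 0.476-fold) it also reached past 2-fold lower.

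The third comparison set iLECko mice against Sham. It shares its Sham libraries with the first, so its values are given side by side and not as a second line of evidence. In iLECko irises 39 members were called higher than Sham (26 of 27 mitosis and 13 of 18 replication genes) and 0 lower, by DESeq2 also 39 and 0, against 19.7% and 15% of all genes. The median log2 fold change was 3.25 for mitosis and 1.35 for replication genes, beside 2.97 and 1.37 after injury in VEGFR3fl/fl mice. Ccnb1 had the largest fitted rise (5.44 ± 0.89, adjusted p = 0.000779) and Bub1 the next (5.38 ± 0.92). Anln, Ccne2 and Rrm1 were called here and not in the first comparison, at 2.10, 2.40 and 1.02 on the log2 scale; Ccne2 (adjusted p = 0.0427) lost its call without Sham replicate 2 or 3, injured VEGFR3fl/fl replicate 3, or any iLECko library, with adjusted p from 0.0501 to 0.132. With the Y-linked level as a covariate 29 members were called, and Anln (1.68, adjusted p = 0.228), Ccne2 (1.53, adjusted p = 0.428) and Rrm1 (0.65, adjusted p = 0.136) were not among them. Every Sham pool held Y-linked RNA (51.1 CPM or more), whereas the iLECko pools held 1.11 CPM at most. Cenpe (-0.17 ± 0.48, adjusted p = 0.781) again stood apart, and Mcm2, Mcm4, Mcm7, Cdt1 and Pcna again stayed under 1.5-fold.

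Other genes of the same pathway came from lists drawn up with earlier results known, so they are described and are not independent support. Their values after injury in VEGFR3fl/fl mice follow. Of 40 further mitosis genes tested, 34 were called higher and 0 lower, with a median of 2.62. That count and median include genes below the filter's 0.57 CPM in every Sham library, among them Nuf2, Ndc80, Kif18b and Melk. Such genes could enter the test only if high enough in injured libraries. Of 29 further replication genes, 10 were called higher and 1 lower (Rpa1, a subunit of the single-strand binding protein RPA, -1.01), with a median of 0.49. Over all genes tested, 22.1% were called higher and 17.5% lower after injury. Between the injured groups 0 genes of either list were called. Of 7 other E2F genes 4 were called higher, among them the repressors E2f8 and E2f7. Among 6 G1 cyclins and kinases, Ccnd1 (cyclin D1, 1.52) and Cdk6 rose while Cdk2 (-1.28) and Ccnd2 (cyclin D2, -1.09) fell. Cdk2, the partner of cyclin E, went from 105, 109 and 108 CPM in Sham to 36.4, 48.1 and 48.2 in injured VEGFR3fl/fl and 52.2, 47.9 and 50.4 in iLECko libraries.

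Of 10 cell cycle inhibitors and pocket proteins, 3 were called higher and 0 lower, with a median of 0.45. The shares over all genes were 22.1% higher and 17.5% lower. Cdkn2b, the CDK4 and CDK6 inhibitor p15, was at 0.498, 0.395 and 0.225 CPM in Sham, 25.2, 31.7 and 27.8 in injured VEGFR3fl/fl and 22.4, 22.5 and 21.3 in iLECko libraries, a rise of 6.21 ± 0.20. Cdkn2a, the locus of p16 and p19ARF, rose by 5.67 ± 0.51, from at most 0.226 CPM to 4.73, 10.5 and 11.4 CPM. Cdkn2b and Cdkn2a lay below the filter's 0.57 CPM in every Sham library and were tested through their injured libraries. Cdkn1a, the p53 target p21, rose by 1.87 ± 0.29. The other 7 were not called.

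Markers of other cell types moved with injury as well. After injury in VEGFR3fl/fl mice, 22.1% of all genes were called higher and 17.5% lower. All 10 macrophage markers were called higher, and their summed level was 488 to 511 CPM in Sham, 12690 to 21134 in injured VEGFR3fl/fl and 8213 to 10118 in iLECko libraries. All 8 T cell markers were called higher (4.79 to 5.21, 40.5 to 58.7 and 24.6 to 43.6 CPM in the same order), as were 6 of 7 blood endothelial markers (437 to 488, 1467 to 1500 and 1309 to 1463 CPM) and 2 of the 3 B and plasma cell markers tested (1.19 to 1.77, 4.02 to 36.8 and 2.88 to 18.6 CPM). All 7 endothelial markers had every injured VEGFR3fl/fl library above every Sham library. Cd3d, Cd3e, Cd3g, Cd2 and Cd8b1 held at most 3 counts in every Sham library and were tested through their injured libraries. Of the 12 iris markers, 9 were called lower and 1 higher, and 11 had a lower fitted level. Between the injured groups, 5 of 10 macrophage markers were called lower and 1 higher in iLECko mice, in the comparison in which Arhgap19 was lower. Over all genes 0.466% were called lower and 0.573% higher. No T cell, B cell or endothelial marker was called, although 7 of 8 T cell markers had lower fitted levels in iLECko and 1 a higher one (median log2 -0.59). In 4 of the 8, every iLECko library lay below every injured VEGFR3fl/fl library, as did 14.3% of all genes. Surface epithelial keratins, 5 genes, summed to 66.9 CPM at most in Sham and 3.38 CPM in the lowest Sham library, and all 5 were called lower after injury; the mitosis sums of the Sham libraries differed by 1.06-fold. The part of any of these cell types in the members' levels was not tested.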

How the data were processed

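The 9 deposited tables hold one count per gene and library, made by the authors from 50-base single-end reads. The submitters' processing notes name HISAT2 2.0.4, Bowtie2 2.2.5 and mm10; the annotation and counting program are not given in the sources used here. About 9.83% to 10.3% of the values are not whole, so the values deposited by the authors were taken for expected counts (estimated reads per gene) and rounded. Members and lists were chosen with earlier results of these data known. Counts were TMM-scaled and filtered with filterByExpr (minimum 10), and all 9 libraries were fitted by group with edgeR 4.0.16 quasi-likelihood tests in R 4.3.3, with Benjamini-Hochberg adjustment over 15010 genes; the fitting was tested on simulated data. Of the members, 11 (7 mitosis, 4 replication) had fewer than 3 Sham libraries at the filter's 0.57 CPM and were tested through their injured libraries. Named genes were fixed by list: the members with full values, and in each comparison the largest called change and any call between injured groups. CPM per kb used GENCODE M21. Intervals use the quasi-likelihood SE. Alternatives included DESeq2 1.42.0, which the study itself used at version 1.4.5, other scalings and filters, a Y-linked covariate, the replicate block and leaving out each library.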

Additional observations from a re-analysis of the deposited data

How the results depend on the processing

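Over 21 alternatives, the members called higher numbered 35 to 41 after injury in VEGFR3fl/fl mice (36 as reported), 29 to 43 for iLECko over Sham (39) and 0 between the injured groups, and no member was called lower than Sham. Arhgap19, the 1 member called lower in iLECko than in injured VEGFR3fl/fl mice, lost its call in some alternatives. These were a fit of the 6 libraries compared, the stricter adjusted p under 0.01, the Y-linked covariate, and leaving out iLECko replicate 2. The call stayed when any other single library was left out. In the fit of 6 libraries and without iLECko replicate 2, 0 genes of all those tested were called between the injured groups. Why the call was lost was not tested. With the Y-linked covariate the median of replication genes was -0.10 between the injured groups and 1.13 for iLECko over Sham, where 29 members were called. Over 18 alternatives the median of mitosis genes ran from 2.67 to 3.40 after injury, from -0.09 to 0.64 between the injured groups and from 2.90 to 3.44 for iLECko over Sham. With library size as the only scaling, the median of all genes after injury moved to -0.16 and the calls from 3323 higher and 2630 lower to 2783 and 3523, while 35 members were called higher and 0 lower; relative to that shift the directions of the members held. Over all genes, like-numbered libraries of different groups had correlations of -0.37 to 0.163. Unlike-numbered libraries were not compared, and replicate 1 was lowest for 41 members in both injured groups. A batch shared by replicate number was therefore not tested. With the replicate block, 35 members were called higher after injury and 1 lower between the injured groups. Between those groups the calls over all genes ran from 0 in the fit of 6 libraries to 344 higher and 282 lower with DESeq2, against 86 and 70. Depth limits the genes with few Sham counts, such as Bub1, Ccnb1 and Cdc6, whose folds are wide.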

Other observations

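Cdkn1c, which encodes the CDK inhibitor p57 and was picked out after its values were seen, was at 216 CPM in injured VEGFR3fl/fl replicate 1, the library with the lowest mitosis sum (155 CPM), against 39.2 and 43.1 in replicates 2 and 3, 67.1, 82.6 and 71.2 in Sham and 41.7, 43.8 and 33.3 in iLECko libraries. Its difference after injury was 0.43 ± 0.56 (adjusted p = 0.529). The same library held the most Jchain, a marker of plasma cells (31.98 CPM, against 0.115 to 2.22 in replicates 2 and 3), and Jchain was at 16.7 CPM in iLECko replicate 2. The part of either gene in that library's mitosis levels was not tested.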
